A study of Homo sapiens with 10 samples.

Results

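The RNA levels of 40 interferon-stimulated effector genes were examined in HCT116 and DNMT1 KO cells, out of 58884 genes counted per library. The 40 were listed by symbol as genes whose products carry out the antiviral response or tune it, and each symbol matched 1 Ensembl gene of the count tables. HCT116 is a human colorectal carcinoma line, here of WT genotype. DNMT1 KO is a derivative of it with exons of DNMT1, the maintenance DNA methyltransferase gene, deleted, and it still makes a little of a shortened DNMT1 protein according to the study. It is 1 derivative line, so what DNMT1 loss does and what is particular to that line cannot be told apart. The labels name no interferon or other treatment for either line. The study describes its libraries as separate cultures. Those analysed here were 6 of HCT116, numbered 1, 2, 3, 7, 8 and 9, and 4 of DNMT1 KO, numbered 1 to 4. The labels place replicate 1 of both lines in batch 1 and replicates 2 and 3 of both in batch 2, while DNMT1 KO replicate 4 is of batch 3 and the last 3 of HCT116 form batch 4. The study puts 3 more HCT116 cultures in batch 3, which were not analysed here, so batch 3 gave no comparison between the lines.

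Interferons are secreted when a cell senses foreign nucleic acid. They bind surface receptors whose JAK kinases activate transcription factors of the STAT family, and together with IRF9 these enter the nucleus and bind a short DNA word, the interferon-stimulated response element (ISRE), beside the genes they switch on. The effector proteins then block virus entry, trap or cut viral RNA, deplete nucleotides or hold new virus at the cell surface. In colorectal cancer cells, such genes are known to respond to added interferon and to drugs that inhibit DNA methyltransferases.

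Library totals were 35418732 to 85991812 counts for HCT116 and 26700853 to 55732013 for DNMT1 KO. DNMT1 itself was at 89.8 to 263 counts per 1000000 (CPM, on library totals scaled by the trimmed mean of M values, TMM) in HCT116 and at 14.1 to 22.3 CPM in DNMT1 KO. Of 8 colon epithelial markers, EPCAM, CDH1, KRT8 and KRT18 were called lower and VIL1 higher in DNMT1 KO, and the summed level of the list was 2520 to 6130 CPM in HCT116 against 645 to 1431 CPM in DNMT1 KO, lowest in replicate 3. The 10 immune cell markers summed to 0.293 to 1.26 CPM in HCT116 and 2.07 to 3.04 CPM in DNMT1 KO, where 1 marker was tested and it was called higher. PTPRC was at 0 to 0.0317 CPM across both lines, and 60.5% of its exonic 50-base windows have another exact copy in the supplied genome sequence, so its count may be too low. The 6 fibroblast and endothelial markers summed to 7.08 to 19.9 and 11 to 22.6 CPM, with PDGFRB, PECAM1 and VWF called higher and COL1A2 at 0 in every HCT116 library. What part these shifts have in the results was not tested.

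The promoters of the genes carry the sequence word that the pathway reads. In the RefSeq promoter table (GRCh38.p14, 250 bases before to 50 bases after each transcription start), 32 of the 40 genes had 44 windows. The ISRE was searched as GAAA, any 2 bases and GAAA again, on either strand, which reads as TTTC, any 2 bases and TTTC on the other. It was found in 30 of the 44 windows (68.2%), of 25 genes, against 3.57% of the 35116 windows in the table. The windows held a median of 8 CG dinucleotides (0 to 45), against 14 over the table. A match is a description of the letters and was not shown to be a bound site.

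Sequences of 6 promoters are shown to let the word be compared between genes that behaved differently in the count data. BST2 rose in every DNMT1 KO library, HERC5 rose in every library and was led by 1 of them, ISG15 and IFI44 were led by 1 library and overlapped with HCT116, and IFIT5 and RTP4 did neither. RTP4 had too few counts for the main test, so its place there says little, and it was called higher without the filter on low counts. Each line holds the 140 bases that end just before the first transcribed base, 5′ to 3′ on the strand of the gene, with ISRE letters in capitals and overlapping matches run together. The last 4 capitals of IFIT5 begin a match that runs on into the transcribed part.
BST2 (chr19:17405631-17405770, minus strand): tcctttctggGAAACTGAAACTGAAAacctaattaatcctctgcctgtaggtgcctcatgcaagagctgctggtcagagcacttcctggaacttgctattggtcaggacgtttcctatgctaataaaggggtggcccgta
HERC5 (chr4:88456979-88457118, plus strand): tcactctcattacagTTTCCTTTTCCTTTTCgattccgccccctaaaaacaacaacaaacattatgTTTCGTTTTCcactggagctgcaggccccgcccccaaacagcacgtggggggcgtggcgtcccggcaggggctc
ISG15 (chr1:1013357-1013496, plus strand): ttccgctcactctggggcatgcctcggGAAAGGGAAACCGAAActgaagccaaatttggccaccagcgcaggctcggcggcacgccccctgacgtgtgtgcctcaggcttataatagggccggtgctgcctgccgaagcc
IFI44 (chr1:78649649-78649788, plus strand): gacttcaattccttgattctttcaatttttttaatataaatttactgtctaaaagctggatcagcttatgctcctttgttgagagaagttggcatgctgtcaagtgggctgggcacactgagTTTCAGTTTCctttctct
IFIT5 (chr10:89414428-89414567, plus strand): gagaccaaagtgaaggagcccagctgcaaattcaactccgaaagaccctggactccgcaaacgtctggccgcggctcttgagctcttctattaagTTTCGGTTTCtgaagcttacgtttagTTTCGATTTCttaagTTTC
RTP4 (chr3:187368245-187368384, plus strand): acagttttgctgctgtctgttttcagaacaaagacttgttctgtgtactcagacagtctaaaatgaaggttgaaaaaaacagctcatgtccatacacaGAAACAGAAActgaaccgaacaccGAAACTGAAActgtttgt
All 6 stretches hold at least 1 ISRE. CG dinucleotides numbered 10 in the stretch of ISG15, 8 in those of HERC5 and IFIT5, 2 in those of BST2 and RTP4, and 0 in that of IFI44. Of the genes with a window, HERC6, OAS1, CMPK2, SAMD9L, IFI35, SP110 and XAF1 had no match in any, and of these HERC6, OAS1 and XAF1 were raised in every DNMT1 KO library.

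To understand how the effector genes differ between the lines, each was first tested across all 10 libraries with edgeR's quasi-likelihood test, adjusted over the 19279 genes tested. Calls needed an adjusted p below 0.05 together with a change of more than 1 on the log2 scale. Of the 40 genes, 34 had enough counts for the test and 20 of them were called higher in DNMT1 KO, where 7.42% of all tested genes were called higher. No gene of the 40 was called lower (6.49% of all tested genes were), and by DESeq2 also 0 were. At an unadjusted p under 0.05, 0 of the 40 were lower. The log2 fold change was above 0 for 33 of the 34, TRIM22 being the exception, although 8 uncalled ones of the 33 (IFITM2, IFITM3, CMPK2, PLSCR1, LGALS3BP, SAMD9, PARP9 and DTX3L) turned negative under at least 1 alternative fit. The median log2 fold change of the 34 was 1.58, against -0.07 over all tested genes. OAS2, IFI44L and XAF1 passed the filter on low counts only through DNMT1 KO libraries, so they had to differ to be tested. They are the genes with no HCT116 library at the limit of the filter. OAS1, IFI44 and EPSTI1, like these, were not tested when every library had to hold 10 counts, and may also have leaned on DNMT1 KO. The median is the same with XAF1, which had no HCT116 count, placed at its bound.

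The 4 DNMT1 KO libraries did not share the increase equally. The median log2 ratio to the HCT116 mean over the 34 genes (CPM + 0.5) was 0.59 in replicate 1, 1.36 in replicate 2, 2.57 in replicate 3 and 0.16 in replicate 4, while over all tested genes it lay between -0.09 and -0.06 in the 4 libraries. The number of the 34 genes above the HCT116 mean was 27, 33, 34 and 21 in the same order. Replicates 2 and 3, which form batch 2 with HCT116 replicates 2 and 3, were thus the high libraries, and replicate 4 lay near HCT116 for most of the genes. HCT116 libraries lay between -0.39 and 0.26.

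**Figure D1:**
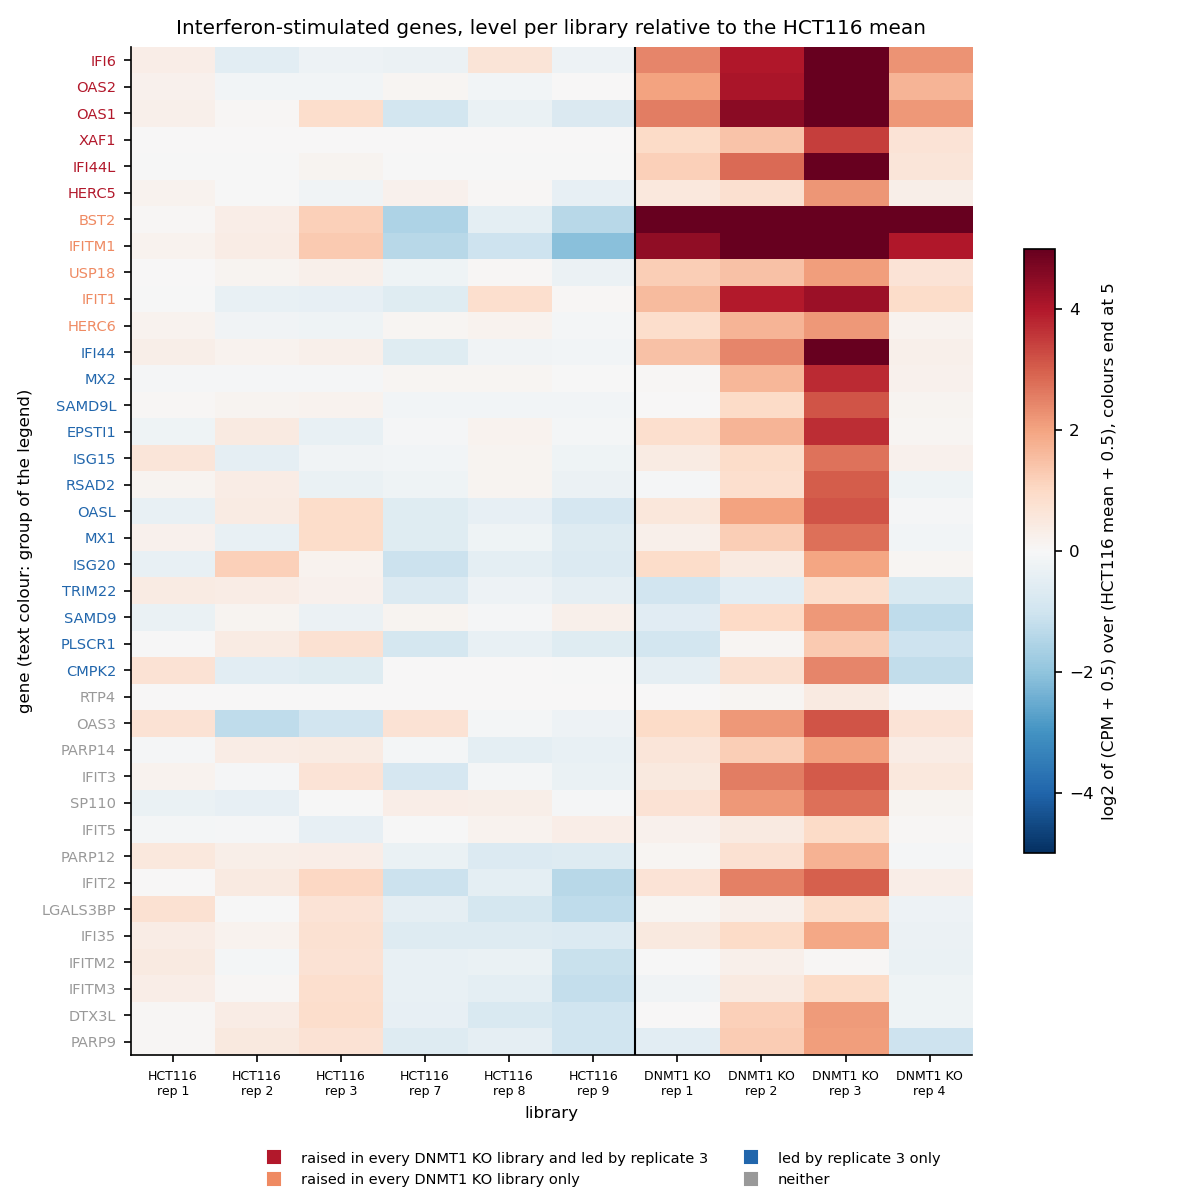
Level of the 38 genes with counts (rows) in each library (columns), as log2 of CPM + 0.5 over the HCT116 mean + 0.5. Red is above the HCT116 mean and blue below, colours end at 5, and gene names are coloured by group. Replicate 3 is the highest DNMT1 KO library in 36 of the 38 rows, BST2 and IFITM2 being the others, and replicate 4 lies near HCT116 in most of the lower rows.

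The ISG15 conjugation genes, which attach a small ubiquitin-like protein to others or remove it, were all 4 called higher. USP18, the protease that removes ISG15 and damps interferon signalling, had the largest log2 fold change of the 4. It was at 1.92, 2.14, 2.38, 1.56, 2.00 and 1.45 CPM in HCT116 replicates 1, 2, 3, 7, 8 and 9, and at 5.2, 6.08, 9.65 and 3.34 CPM in DNMT1 KO replicates 1 to 4. The groups did not overlap, and the log2 fold change was 1.67 (SE 0.32, adjusted p = 0.00199). ISG15, the modifier itself, was at 141, 68.4, 82.5, 84.8, 102 and 81.0 CPM in HCT116 and at 123, 175, 613 and 107 CPM in DNMT1 KO. DNMT1 KO replicates 1 and 4 lay inside the HCT116 range and replicate 3 stood far above the rest, so that the log2 fold change of 1.45 (SE 0.42, adjusted p = 0.0287) was 0.56 without replicate 3 (SE 0.27, adjusted p = 0.199). HERC5, the main ISG15 ligase, and its relative HERC6 had log2 fold changes of 1.23 and 1.5. Their lowest DNMT1 KO libraries were just above their highest HCT116 libraries, at 9.97 against 9.36 CPM and 7.06 against 7.02 CPM. Of the exonic 50-base windows of USP18, 54.3% have another exact copy in the supplied genome sequence, so its level is less certain.

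The IFIT proteins bind the ends of foreign RNA. IFIT1, IFIT2 and IFIT3 were called higher, with log2 fold changes of 3.38, 2.15 and 2.22, and IFIT5 was not (0.47, SE 0.23, adjusted p = 0.209). IFIT1 was at 8.42, 6.5, 6.31, 5.47, 15.8 and 8.91 CPM in HCT116 and at 26.8, 139, 175 and 16.5 CPM in DNMT1 KO. Its lowest DNMT1 KO library, replicate 4, was just above HCT116 replicate 8, and the batch 2 libraries stood far above the other 2 of DNMT1 KO. IFIT5 was at 62.2, 63.8, 50.3, 66.9, 75.0 and 83.3 CPM in HCT116 and at 77.8, 91.7, 132 and 68.8 CPM in DNMT1 KO, so the groups overlapped. IFIT2 and IFIT3 ran from 1.82 to 11.8 and 2.37 to 7.65 CPM in HCT116 and from 7.06 to 47.2 and 6.69 to 42.0 CPM in DNMT1 KO. IFIT2 also shares 10.3% of its exonic bases with other genes.

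The IFITM proteins sit in membranes and hinder the fusion of virus with the cell. IFITM1 was called and its paralogues IFITM2 and IFITM3 were not (log2 fold changes 0.0069 and 0.34, adjusted p = 0.991 and 0.6). IFITM1 was at 4.08, 4.69, 9.52, 1.03, 1.46 and 0.441 CPM in HCT116 and at 85.9, 211, 325 and 64.1 CPM in DNMT1 KO. The lowest DNMT1 KO library was 2.69 on the log2 scale above the highest HCT116 library (CPM + 0.5), and the log2 fold change was 5.62 (SE 0.75, adjusted p = 8.63e-05). IFITM2 ran from 81.0 to 291 CPM in HCT116 and 141 to 208 CPM in DNMT1 KO, and IFITM3 from 211 to 844 and 407 to 931 CPM. Per kilobase of exon, the mean level of IFITM1 moved from 3.78 to 183 CPM, against 114 in both lines for IFITM2 and 414 and 523 for IFITM3. The annotation used for counting gives IFITM1 and IFITM2 351 exonic bases in common, 37.5% of those of IFITM1, and 8.67% to 26.8% of the 50-base windows of the 3 genes have another exact copy, so reads of this family may be split or lost. IFITM3 also shares 24.9% of its exonic bases with a gene on the other strand.

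The MX GTPases trap viral nucleocapsids. MX1 was at 0.712, 0.316, 1.5, 0.181, 0.403 and 0.174 CPM in HCT116 and at 0.732, 1.95, 6.51 and 0.452 CPM in DNMT1 KO. Replicates 1 and 4 lay inside the HCT116 range, and the log2 fold change of 2.18 (SE 0.74) missed the threshold (adjusted p = 0.0578). Of 24 alternative fits, 6 called MX1 and 18 did not. MX1 was called by DESeq2 (adjusted p = 0.0153), by edgeR's likelihood ratio test (0.0192), without the filter on low counts (0.0140) and on library totals alone (0.0399). By edgeR's quasi-likelihood test it was not called with a batch term over all libraries (adjusted p = 0.136) or in batch 2 alone (0.186). Without DNMT1 KO replicate 3 its log2 fold change was 0.99 (adjusted p = 0.418 by the same test). MX2 did not pass the filter on low counts, at 0, 0, 0, 0.0696, 0.0620 and 0.0232 CPM in HCT116 and at 0.0505, 1.17, 6.41 and 0.104 CPM in DNMT1 KO. Its 475 counts in DNMT1 KO and 11 in HCT116 gave a pooled ratio of 77.4 (95% counting interval 42.9 to 156), nearly all of it from the 2 batch 2 libraries. Such intervals treat each count as independent and cover counting error only.

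The OAS enzymes make a second messenger that switches on RNase L when they meet double-stranded RNA, and OASL is a relative without that activity. All 4 were called higher. OAS2 was at 0.124, 0, 0, 0.0836, 0 and 0.0581 CPM in HCT116 and at 1.72, 8.83, 24.5 and 1.29 CPM in DNMT1 KO. OAS2 passed the filter on low counts only through DNMT1 KO libraries, so it had to differ to be tested. The groups were apart in every library, from 15 HCT116 counts to 2143 DNMT1 KO counts, a pooled ratio of 256 (95% counting interval 155 to 459). The fitted log2 fold change was 7.62 (SE 0.98, adjusted p = 6.08e-05). OAS1 behaved alike, from 0.0139 to 1.28 CPM in HCT116 to 3.82 to 53.3 CPM in DNMT1 KO (log2 fold change 5.56). OAS3 (log2 fold change 2.08) and OASL (2.05) overlapped between the groups: OAS3 ran from 32.2 to 128 CPM and from 125 to 684 CPM, and OASL from 2.68 to 10.5 and from 4.97 to 50.3 CPM. Per kilobase of exon, OAS3 was the highest of the 4 in both lines (9.46 and 40 CPM).

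RSAD2 (viperin) and its neighbour CMPK2 make and feed a chain-terminating nucleotide. Neither was called. CMPK2 was at 3.16, 1.04, 0.963, 1.75, 1.78 and 1.67 CPM in HCT116 and at 1.11, 3.38, 11.5 and 0.452 CPM in DNMT1 KO, with replicate 4 below every HCT116 library. Its log2 fold change was 1.26 (SE 0.65, adjusted p = 0.231) with replicate 3 and -0.015 without it. RSAD2 did not pass the filter, at 0.186, 0.316, 0, 0.0418, 0.186 and 0.0116 CPM in HCT116 and at 0.101, 0.604, 4.60 and 0.0348 CPM in DNMT1 KO. For RSAD2, replicate 3 held most of the DNMT1 KO signal, and replicates 1 and 4 were within the HCT116 range.

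Of the surface and secreted products, BST2 (tetherin), which holds budding virus at the cell surface, rose to a like level in all 4 DNMT1 KO libraries. It was at 3.40, 4.19, 7.92, 0.780, 2.14 and 0.929 CPM in HCT116 and at 192, 268, 219 and 209 CPM in DNMT1 KO. The lowest DNMT1 KO library was 4.51 on the log2 scale above the highest HCT116 library (CPM + 0.5), and the log2 fold change was 6.12 (SE 0.57, adjusted p = 2.82e-06). PLSCR1, a lipid scramblase that restricts virus, was at 38.2, 52.4, 67.4, 20.8, 30.2 and 25.9 CPM in HCT116 and at 20.5, 41.8, 98.1 and 19.0 CPM in DNMT1 KO. Replicates 1 and 4 were below every HCT116 library, and the log2 fold change was 0.20 (SE 0.45, adjusted p = 0.819). LGALS3BP, a secreted glycoprotein, ran from 280 to 1141 CPM in HCT116 and from 561 to 1288 CPM in DNMT1 KO (log2 fold change 0.33, not called). LY6E, a membrane protein that acts on virus entry, was listed at 0 in every library.

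SAMD9 and SAMD9L restrict translation in infected cells. SAMD9 was at 13, 18.2, 13.3, 18.3, 15.8 and 19.9 CPM in HCT116 and at 10.9, 33.0, 76.0 and 6.43 CPM in DNMT1 KO, so that the 4 DNMT1 KO libraries fell on both sides of HCT116. The log2 fold change was 0.95 (SE 0.49, adjusted p = 0.236). SAMD9L, which did not pass the filter, was at 0.0619, 0.0902, 0.107, 0, 0 and 0 CPM in HCT116 and at 0.0505, 0.569, 4.32 and 0.104 CPM in DNMT1 KO. Its pooled ratio of 55.4 (95% counting interval 29.7 to 117) came from 10 and 309 counts, and again the batch 2 libraries alone lay above HCT116.

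The ADP-ribosylation genes PARP9, PARP12 and PARP14 and the ubiquitin ligase gene DTX3L, whose product pairs with PARP9, gave 1 call. It was PARP14 (log2 fold change 1.22, SE 0.32, adjusted p = 0.0147). It was at 44.9, 60.8, 62.2, 44, 33.0 and 35.8 CPM in HCT116 and at 71.6, 109, 194 and 60.6 CPM in DNMT1 KO, with replicate 4 just below HCT116 replicate 3. PARP12 was at 30.1, 25.8, 26.3, 16.5, 12.8 and 13 CPM in HCT116 and at 22.2, 35.9, 70.9 and 19.7 CPM in DNMT1 KO (log2 fold change 0.84, adjusted p = 0.152). PARP9 and DTX3L, whose transcripts start close together on opposite strands, had log2 fold changes of 1.00 and 1.11 (adjusted p = 0.232 and 0.119).

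Of the 5 IFI genes, IFI6, IFI44 and IFI44L were called. IFI6 encodes a small membrane protein that guards against flavivirus replication and cell death. It was at 8.60, 4.56, 5.54, 5.32, 10.7 and 5.47 CPM in HCT116 and at 38.1, 116, 512 and 33.3 CPM in DNMT1 KO. The groups were apart in every library, replicate 3 was 4.39 times the next (CPM + 0.5), and the log2 fold change was 4.71 (SE 0.65, adjusted p = 0.000118). IFI44L, which with IFI44 belongs to a GTPase-like family, was at 0, 0, 0.0535, 0, 0 and 0 CPM in HCT116 and at 0.657, 3.09, 36.6 and 0.278 CPM in DNMT1 KO. It had the largest lead of replicate 3, 10.3 times the next library, and 2 HCT116 counts against 2513 gave a pooled ratio of 2253 (95% counting interval 623 to 18616). IFI44 ran from 0 to 0.433 CPM in HCT116 and from 0.417 to 23.9 CPM in DNMT1 KO (log2 fold change 4.84). IFI35, which binds signalling partners such as NMI, had a log2 fold change of 1.02 (adjusted p = 0.114). IFI27, a mitochondrial protein gene, was listed at 0 in every library. All exonic 50-base windows of IFI27 and of LY6E (100% of each) have another exact copy in the supplied genome sequence, which holds alternate contigs, and the authors removed reads of low mapping quality. The part of this in the zeros was not tested.

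Among nuclear and other effectors, SP110, XAF1 and EPSTI1 were called, of which XAF1 passed the filter on low counts only through DNMT1 KO libraries. XAF1, which counters an inhibitor of apoptosis, had no count in any HCT116 library and was at 0.480, 0.853, 4.95 and 0.313 CPM in DNMT1 KO. With 388 counts in DNMT1 KO it was at least 232-fold higher, against a floor of 3 counts over the HCT116 libraries. XAF1 shares 38.3% of its exonic bases with an antisense gene, PRAL, and the counting names no strand option, so reads of the 2 cannot be told apart. SP110, a nuclear body protein, ran from 3.61 to 6.35 CPM and from 5.49 to 36.3 CPM (log2 fold change 1.91), and EPSTI1, first found in epithelial cells beside stroma, from 0.160 to 0.677 and from 0.417 to 10.6 CPM (3.29). SP110 also shares 20.9% of its exonic bases with genes on the other strand. The exonuclease gene ISG20 (log2 fold change 1.17) and the ubiquitin ligase gene TRIM22 (-0.20) were not called (adjusted p = 0.149 and 0.911). TRIM22 had no count in DNMT1 KO replicate 1 and ran to 1.30 CPM in replicate 3, against 0.111 to 0.804 CPM in HCT116. RTP4, a chaperone-like protein gene, had 14 counts in DNMT1 KO and 0 in HCT116, at least 8.37-fold higher, all of them in replicates 2 and 3.

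**Figure D2:**
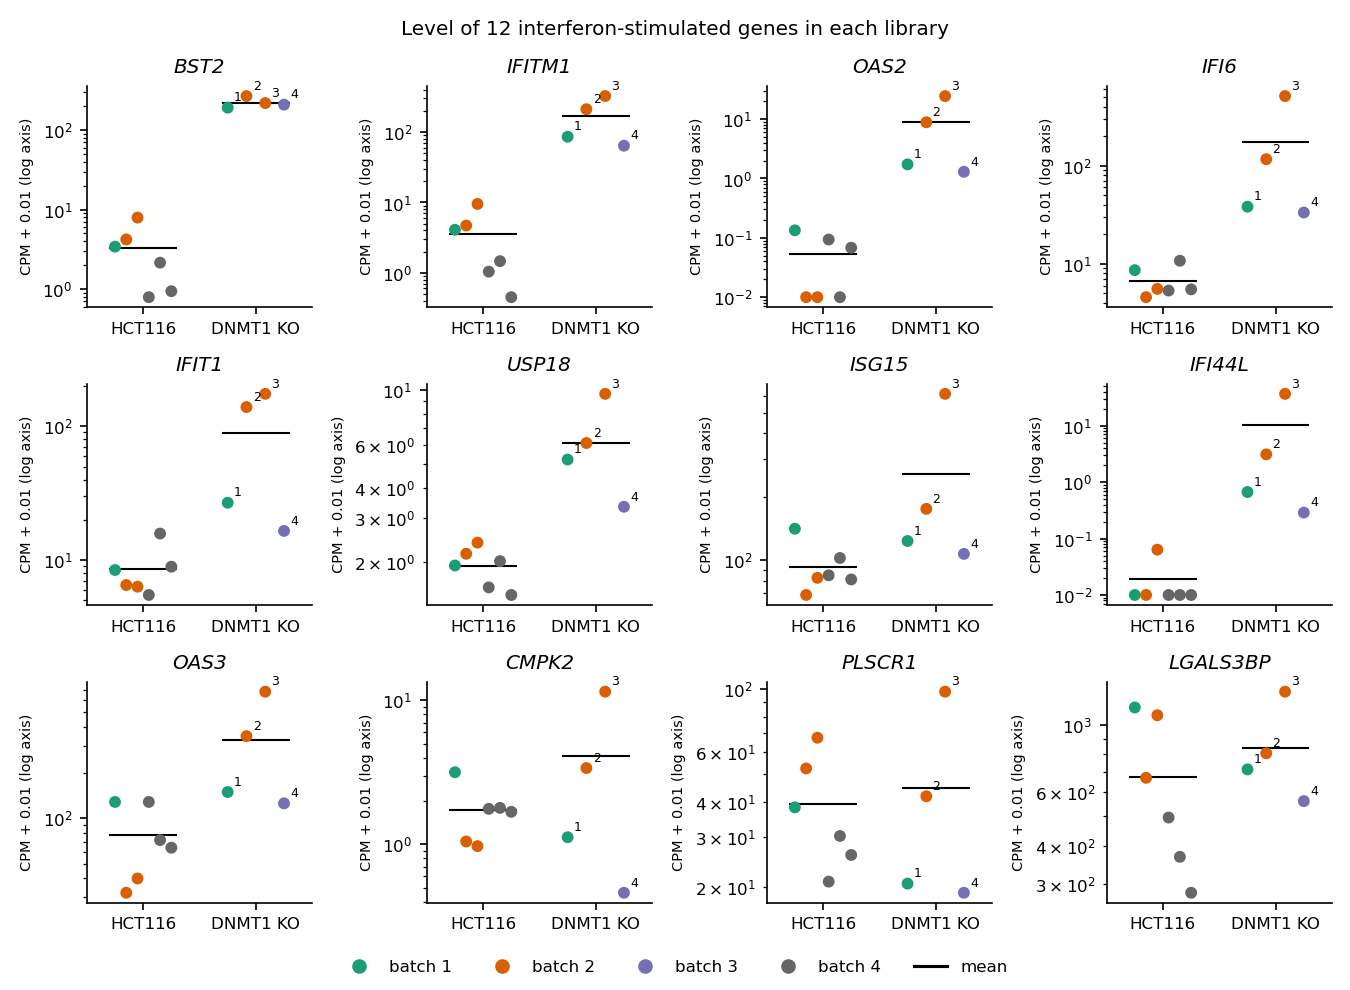
Level of 12 genes in each library, as CPM + 0.01 on a log axis; points are libraries coloured by batch, DNMT1 KO points carry their replicate number and lines are group means. BST2 points of DNMT1 KO sit between 192 and 268 CPM, whereas those of ISG15 run from 107 to 613 CPM and overlap with HCT116.

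The genes were then separated by whether every DNMT1 KO library lay above every HCT116 library, and by whether DNMT1 KO replicate 3 stood at least 2 times above the next DNMT1 KO library (CPM + 0.5). Both use the same counts as the comparison and are given as a description. Every DNMT1 KO library was higher for 11 of the 40 genes, where this held for 8.40% of all tested genes. The 11 were BST2, IFITM1, IFIT1, USP18, HERC5, HERC6, OAS1, OAS2, IFI6, IFI44L and XAF1, and all 11 were called. OAS2, IFI44L and XAF1 among them passed the filter on low counts only through DNMT1 KO libraries. Replicate 3 led for 19 genes, where it led for 2.49% of all tested genes. The 19 include MX2, RSAD2 and SAMD9L, which were too low to be tested. Both held for 6 genes (HERC5, OAS1, OAS2, IFI6, IFI44L and XAF1), against 0.140% of all tested genes. The other 5 genes raised in every library, BST2, IFITM1, IFIT1, USP18 and HERC6, were not led by replicate 3.

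A further 13 genes were led by replicate 3 while another DNMT1 KO library reached into the HCT116 range. These were ISG15, MX1, MX2, OASL, RSAD2, CMPK2, PLSCR1, SAMD9, SAMD9L, IFI44, ISG20, TRIM22 and EPSTI1. Of the 13, ISG15, OASL, IFI44 and EPSTI1 were called across the 10 libraries. The remaining 16 genes met neither, among them IFIT2, IFIT3, OAS3, PARP14 and SP110, which were called. LY6E, IFI27 and RTP4, also among the 16, had too few counts for the test. At the limits of the 2 criteria, HERC6 lay just inside the first (log2 gap 0.0061) and IFI44 and OAS3 just outside it (-0.025 and -0.030), and ISG20 lay just inside the second (2.07 times the next library) and OAS3 just outside (1.96 times). A gap of at least 2 times between the groups held for 5 genes, and for 1.83% of all tested genes.

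**Figure D3:**
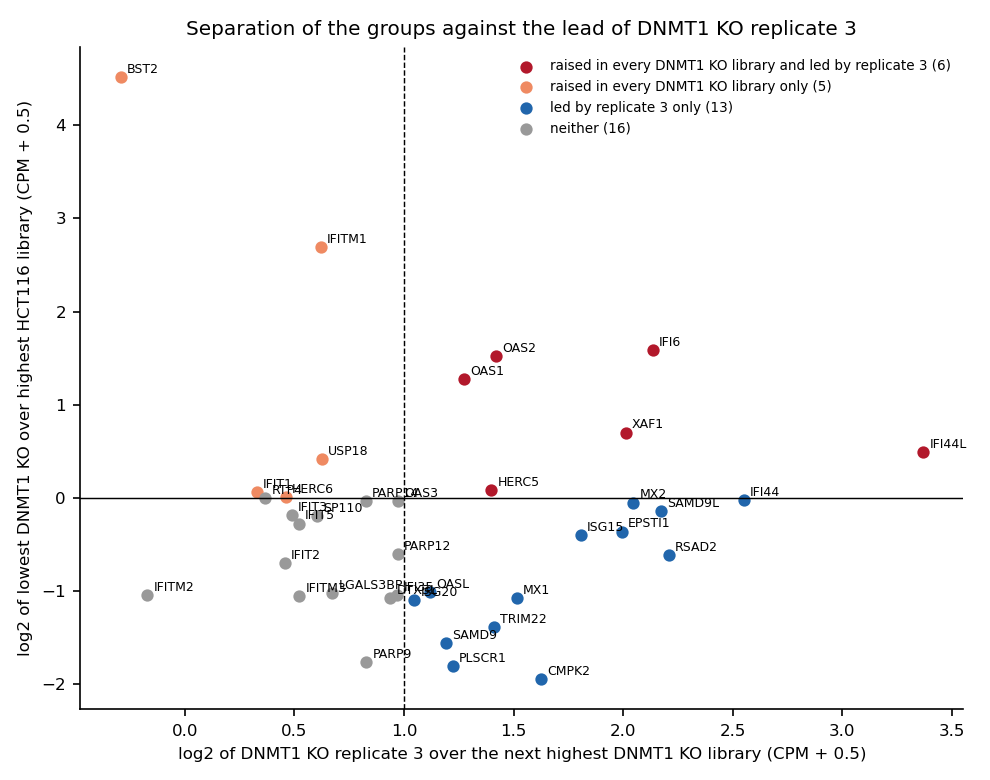
Each point is a gene with counts, placed by the lead of DNMT1 KO replicate 3 over the next DNMT1 KO library (x axis, log2) and by the gap between the lowest DNMT1 KO and the highest HCT116 library (y axis, log2). Genes above the solid line rose in every DNMT1 KO library and genes right of the dashed line were led by replicate 3, with BST2 at a gap of 4.51 and no lead, and IFI44L at a lead of 3.37.

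The order of the DNMT1 KO libraries was much the same from gene to gene. Of the 38 genes with counts in DNMT1 KO, 36 were highest in replicate 3, where 36.3% of all tested genes were. The 38 include MX2, RSAD2, SAMD9L and RTP4, which were too low to be tested. BST2 and IFITM2 were highest in replicate 2. Replicate 3 came first and replicate 2 second for 35 genes (12.3% of all tested genes), and both lay above replicates 1 and 4 for 37 genes (18.4%), ISG20 being the exception. Replicate 4, the only DNMT1 KO library of batch 3 and the one with the fewest counts, was the lowest for 32. The share of all tested genes lowest in replicate 4 was not worked out, so this may not be particular to these genes. The median log2 ratio of replicate 3 to replicate 2, which share a batch and a genotype, was 0.97 over the 34 tested genes (-0.29 to 3.37) and 0.045 over all tested genes. Summed epithelial markers were also lowest in replicate 3, and the part of that in the lead of replicate 3 was not tested.

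To ask which calls need replicate 3, the test was repeated without it. Of the 20 genes, 15 were still called, where 6.63% of all tested genes were called higher without replicate 3. The 5 that were lost were ISG15, HERC5, IFIT2, OASL and PARP14, with log2 fold changes of 0.56, 0.62, 1.62, 1.21 and 0.80 and adjusted p-values from 0.0809 to 0.199. HERC5 was thus raised in every DNMT1 KO library and yet not called without replicate 3. Of the genes called both ways, the log2 fold change dropped most for IFI44L, from 10.21 to 7.31 (fitted values that rest on 2 HCT116 counts), and for IFI44, from 4.84 to 2.89, whereas BST2 was at 6.12 and 6.13. In an alternative added after the levels were seen, DNMT1 KO replicates 1 and 4 alone were set against the 6 HCT116 libraries. Then 7 of the genes were called, where 4.58% of all tested genes were called higher. The 7 were BST2, IFITM1, OAS1, OAS2, IFI6, IFI44L and XAF1, and the log2 fold changes of the first 5 were 5.97, 4.42, 3.30, 5.02 and 2.41. No fold is given for IFI44L and XAF1, which had 2 and 0 HCT116 counts. OAS2, IFI44L and XAF1 are among both the 15 and the 7. They passed the main filter on low counts only through DNMT1 KO libraries, so they had to differ to be tested.

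**Figure D4:**
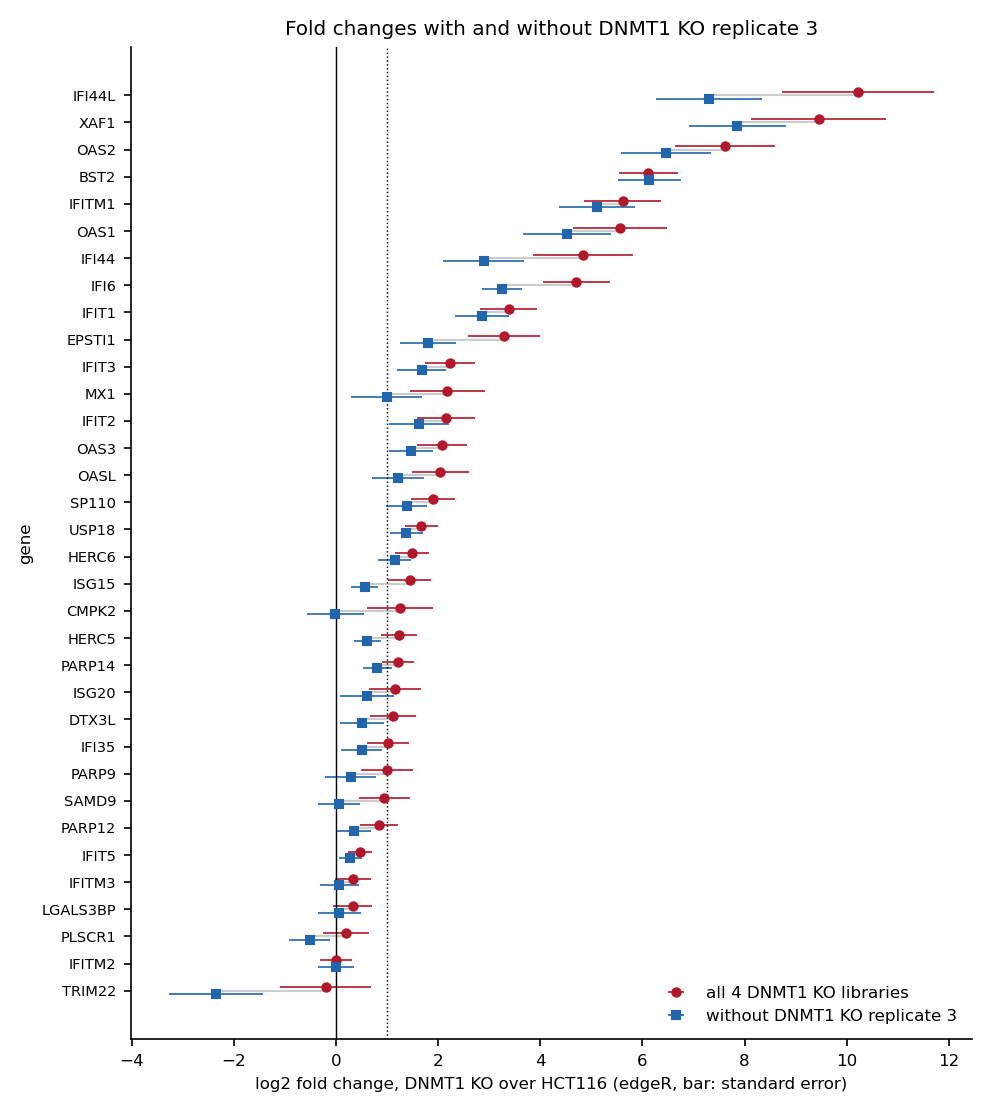
Log2 fold change of DNMT1 KO over HCT116 for the 34 tested genes with all 4 DNMT1 KO libraries (circles) and without replicate 3 (squares), bars being standard errors of edgeR's quasi-likelihood fit; the dotted line marks 1. The squares lie left of the circles for all but BST2, by most for IFI44L and TRIM22.

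Batches 1 and 2 hold both lines and allow a comparison within each. In batch 1, with 1 library per line and no replicates, the median log2 ratio of the 34 tested genes was 0.48 and 23 were above 0. In batch 2, with 2 libraries per line, it was 2.00 and 33 were above 0, and with DNMT1 KO replicate 2 alone it was 1.29. Over all tested genes the medians were -0.0038 in batch 1 and 0.039 in batch 2. Batch 1 exceeded batch 2 for BST2 (5.62 and 5.22) and ISG20 (1.30 and 0.63) among the 34, and ISG15 (-0.19 and 2.38) and CMPK2 (-1.18 and 2.40) are examples that fell on opposite sides of 0. Whether the effect differs between the batches was not tested. In batch 2 alone, edgeR's test called 18 of the 40 genes (4.17% of all tested genes), and with batch as a term over all libraries it called 20 (8.42%) and over batches 1 and 2 it called 18 (7.37%). The last of these lost ISG15 (adjusted p = 0.140) and HERC5 (0.0855), and batch 2 alone lost both, PARP14, USP18 and EPSTI1 and added CMPK2, MX2 and SAMD9L. The other batches hold 1 line each, so with a batch term they add no comparison between the lines. The 20 calls over all libraries thus rest on batches 1 and 2, as the 18 do, and are not separate evidence. For ISG15 the log2 fold changes were 1.576 over all libraries and 1.577 over batches 1 and 2 (SE 0.52 and 0.63). Without the filter on low counts 26 of the 40 were called (5.58%), with MX1, DTX3L, MX2, RSAD2, SAMD9L and RTP4 added to the 20.

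**Figure D5:**
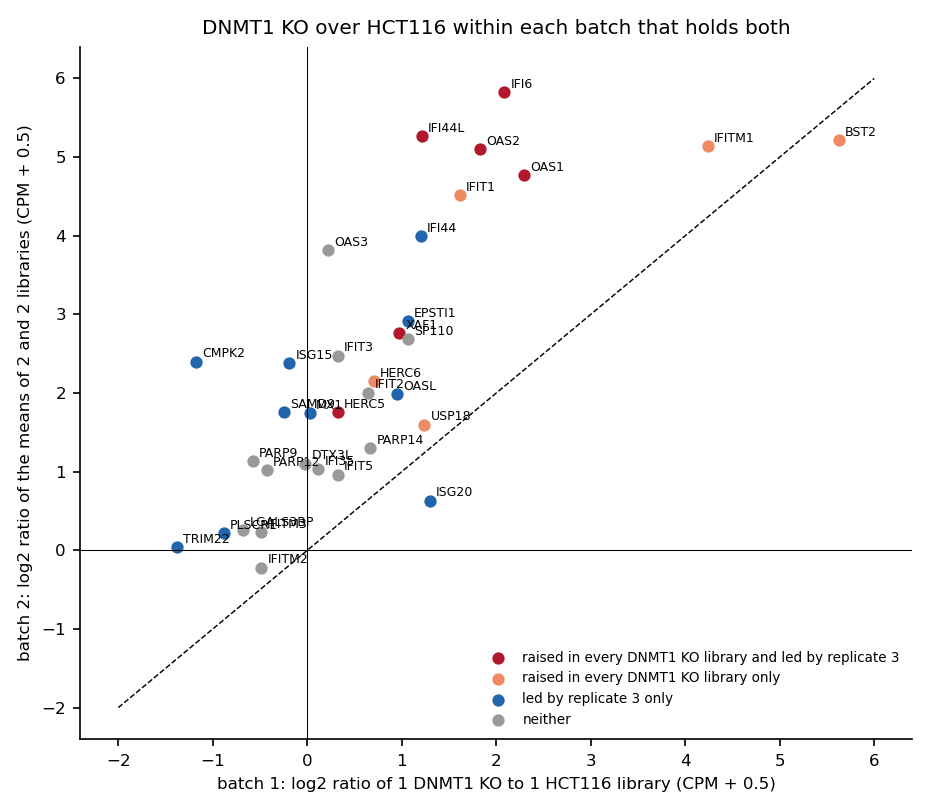
Log2 ratio of DNMT1 KO to HCT116 in batch 1 (x axis, 1 library of each) and in batch 2 (y axis, means of 2 and 2 libraries) for the 34 tested genes, from CPM + 0.5. Points above the dashed line of equality, all but BST2 and ISG20, have the larger ratio in batch 2.

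The genes also varied within HCT116. When batch 4 was compared with batches 1 and 2 in the same way, 7 of the 31 genes that could be tested were called, and each was lower in batch 4. Over all genes tested 4.94% were called lower in batch 4 and 3.09% higher. The 7 were IFIT2, IFITM1, BST2, LGALS3BP, PARP9, DTX3L and IFI35, with log2 fold changes from -2.68 for IFITM1 to -1.17. The median over the 31 was -1.0, against 0.0067 over all genes tested. For IFITM1 it was -2.68 against 5.62 between the lines, and for IFIT2 -1.68 against 2.15, whereas for PARP9, DTX3L, IFI35 and LGALS3BP it was larger in size than the difference between the lines.

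The pathway upstream of the effectors was read from a list of 40 ligand, receptor, signalling, sensor and inhibitor genes. Of these, 28 were tested, with a median log2 fold change of 0.065 (-0.07 over all tested genes). In DNMT1 KO 5 were called higher (7.42% of all tested genes were) and 1 lower (6.49% were). None of the 9 ligand genes had enough counts. IFNE, an epithelial interferon gene, was at 0.0557 to 0.465 CPM in HCT116 and 0 to 0.0355 CPM in DNMT1 KO, and IFNB1, the gene of interferon beta, at 0 to 0.214 and 0 to 0.254 CPM. None of the 6 receptor genes was called: IFNAR1 was at 51.2 to 80.1 CPM in HCT116 and 54.5 to 97.6 in DNMT1 KO (log2 fold change 0.051), and IFNGR1 at 34.3 to 85.1 and 54.2 to 63.4 (-0.14). IFNAR2 passed the adjusted p (0.0442) and not the fold limit (0.97). Among the kinase and transcription factor genes, 9 were tested and 1 was called higher. JAK1 and STAT2 were not called (log2 fold changes -0.28 and 0.38), and IRF7, with 97.9% of its exonic windows copied elsewhere in the supplied sequence, had 8 counts in all.

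Of the 10 sensor and adaptor genes, 8 were tested and 4 called higher. DHX58, a helicase that tunes RNA sensing, rose from 0.306 to 1.07 CPM in HCT116 to 6.29, 11.1, 18.3 and 3.51 CPM in DNMT1 KO (log2 fold change 3.92, SE 0.46, adjusted p = 2.64e-05). The kinase gene EIF2AK2 (PKR) rose from 93.6 to 130 CPM to 221, 276, 738 and 178 CPM (1.70). Every DNMT1 KO library was above HCT116 for both. The RNA sensor genes RIGI (1.72) and IFIH1 (2.11) were led by replicate 3, at 113 and 99.4 CPM, and replicate 4 was inside the HCT116 range. ADAR, an RNA-editing enzyme, and the adaptor MAVS were not called (0.78 and -0.16). Without replicate 3, DHX58 and EIF2AK2 were the 2 called higher (6.63% of all tested genes were), RIGI and IFIH1 having adjusted p-values of 0.247 and 0.198. Among 5 inhibitor genes SOCS3 was called lower (log2 fold change -1.19), at 32.7 to 65.2 CPM in HCT116 and 13.4 to 28.0 CPM in DNMT1 KO, while PIAS1 and PTPN6 were not called (-0.052 and 0.37).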

How the data were processed

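Stranded mRNA libraries were sequenced with paired ends. The authors trimmed reads with Trim Galore 0.4.1, aligned them to hg38 by bowtie2, an aligner that makes no spliced alignments, removed reads of low mapping quality and counted exonic reads per gene with featureCounts. The authors deposited these raw counts in 1 table per library. A further 3 tables without a listed sample were not used here. Among counts of 1 to 10, 64.4 to 70.0% were even in 9 libraries and 39.9% in DNMT1 KO replicate 4, so the 9 may count mates and counting intervals may be too narrow.

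The edgeR package (4.0.16, under R 4.3.3) gave the main tests (default filterByExpr, TMM scaling, two-sided quasi-likelihood F test on the line alone, Benjamini-Hochberg adjustment), and the fits were first tested on simulated data. DESeq2 1.42.0 was an alternative. Standard errors are the fold change over the square root of the F statistic. Gene symbols came from GENCODE release 44, and exonic 50-base windows with a second exact copy were counted in the supplied hg38 sequence (455 contigs, 261 alternate). Genes with no HCT116 count carry a bound against a floor of 3 counts over the group, and intervals are exact at 95%.

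The genes, lists, criteria and alternatives were chosen with earlier results of these data known. Each gene is named with its role. The value in every library is printed for the gene with the largest log2 fold change and the one with the largest lead of replicate 3 in each role group, and for IFI6 and some upstream genes besides, which were chosen after their values were seen. Of upstream genes, the called ones (1 excepted) and up to 2 others per role with the highest mean are named, besides IRF7 and IFNAR2, chosen after their values were seen. Values of 2 listed genes are not reported here. Sequences are RefSeq's, from the promoter table of GRCh38.p14.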

Additional observations from a re-analysis of the deposited data

Results flagged for a closer look

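Within each group, the highest and lowest library of each gene was set against the rest by Dixon's criterion at 95%, over 74 groups, where chance gives about 1 in 20. Of 12 values set apart, 8 were high values of DNMT1 KO replicate 3: ISG15 at 613 CPM (the others at 107 to 175), HERC5 at 38.6, RSAD2 at 4.60, SAMD9L at 4.32, IFI44 at 23.9, IFI44L at 36.6, TRIM22 at 1.30 and XAF1 at 4.95 CPM. The other 4 were HCT116 libraries: IFIT1 in replicate 8 at 15.8 CPM, CMPK2 in replicate 1 at 3.16 CPM, IFI44L in replicate 3 at 0.0535 CPM (2 counts, the others at 0) and ISG20 in replicate 2 at 8.14 CPM. The 8 are genes of 1 pathway read in 1 library, so they are not 8 separate events. All 8 are also among the 19 led by replicate 3, which rest on the same values. The flags thus restate that lead and are no further evidence for it. No difference of the effect between groups was tested.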

How the results depend on the processing

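Against the 20 genes called higher, 11 were called with glmTreat and 7 with DNMT1 KO replicates 1 and 4 alone (added after the data were seen), 14 to 26 in the other fits over all libraries or batches, and 15 to 23 with 1 library left out, fewest without DNMT1 KO replicate 3. Over all tested genes 1431 were called higher, 744 with glmTreat and 905 with replicates 1 and 4 alone. The range was 734 to 1965 in the other fits and 1214 to 1587 with 1 library left out. ISG15 was also lost without HCT116 replicate 7 or 9 (adjusted p = 0.0578 and 0.0522) and IFIT2 without DNMT1 KO replicate 2 (0.0609). In no fit was any of the 40 called lower. Without replicate 3, 15 became 9 when each library had to hold 10 counts and 8 with glmTreat, while over all tested genes 1288 became 646 and 708. The 5 upstream genes called higher became 1 with glmTreat or replicates 1 and 4 alone, 2 in batch 2 alone, in batches 1 and 2 with a batch term and in replicates 1 to 3, and 3 with the block below, and 2 to 6 with 1 library left out. Over all tested genes, 815 were called higher in batch 2 alone and 1377 in batches 1 and 2 with a batch term. Replicates 1 to 3 gave 1171 without the block and 1232 with it. The 1 lower became 0 with library totals alone, glmTreat or batch 2 alone and 2 without a filter, and 1 to 2 with 1 library left out (2 without any 1 DNMT1 KO library). Over all tested genes 1251 were called lower, against 956, 623 and 798 in those 3 fits and 1547 without a filter. With 1 library left out, 987 to 1250 were. The 7 called between HCT116 batches became 13 with DESeq2, 12 with the likelihood ratio test and 0 with glmTreat. Over all genes tested, 577 were called higher and 921 lower in batch 4. Those numbers became 1079 and 1388 with DESeq2, 1085 and 1389 with the likelihood ratio test, and 10 and 104 with glmTreat. The 11 raised in every DNMT1 KO library became 5 at a gap of 2 times (1.83% of all tested genes), 15 with library totals alone, and 16 without replicate 4. The 19 led by replicate 3 became 29 at 1.5 times and 7 at 4 times. The shares of all tested genes beside the 15, 16, 29 and 7 were not worked out. Whether those shifts are particular to the 40 genes was thus not tested. The cause was not tested.

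Replicate numbers 1 to 3 occur in both lines, but the deviations of same-numbered libraries correlated at 0.463, -0.199 and 0.375, not all above 0.1. Same-numbered libraries also share a batch, but replicates 2 and 3 share the same one, so the numbers were not taken as pairs. With a replicate block, 16 genes were called, against 15 without it in the same libraries. Over the 18681 genes tested there, 1232 and 1171 were called higher. With the block, ISG15, HERC5, OAS3 and PARP14 of the 20 were not called (adjusted p = 0.0518 to 0.163).

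Signs turned only in uncalled genes. IFITM2 was -0.020 without a filter, -0.31 with a batch term over all libraries or batches 1 and 2, -0.22 in batch 2 alone, -0.31 and -0.27 in replicates 1 to 3 without and with the block, and -0.14 to 0.25 without 1 library. With a batch term over all libraries and over batches 1 and 2, IFITM3 was -0.0098 and -0.0087, PLSCR1 -0.14 in both, and LGALS3BP -0.049 and -0.047. LGALS3BP was -0.039 and -0.046 in replicates 1 to 3 without and with the block, and PLSCR1 -0.23 with it. Without 1 library, CMPK2 ran from -0.015 to 1.62 and PLSCR1 from -0.51 to 0.45, both lowest without DNMT1 KO replicate 3. With replicates 1 and 4 alone, IFITM2 was -0.17, IFITM3 -0.20, CMPK2 -1.13, PLSCR1 -0.99, LGALS3BP -0.077, SAMD9 -0.92, PARP9 -0.76 and DTX3L -0.090. TRIM22 was 0.036 with library totals alone, 0.075 in batch 2 alone and -2.35 (without DNMT1 KO replicate 3) to 0.16 without 1 library. MX2, RSAD2, SAMD9L and RTP4 did not pass the filter on low counts and were called without it, and LY6E and IFI27 had no count.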
